A study of Mus musculus with 10 samples.

Results

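Hormone and endocrine genes of the pancreatic islet were followed in murine KPC orthotopic tumors. The 10 genes were chosen by name, with earlier results of these data known. They are the hormones Ins1, Ins2, Gcg, Sst, Ppy and Iapp and the transcription factor Pdx1. Added to these are the granule protein gene Chga and the prohormone convertases Pcsk1 and Pcsk2. Each symbol matched 1 mouse Ensembl identifier among the 55359 genes of the deposited table. The tumors grew from KPC K8484, a mouse line of pancreatic cancer that arose under a Pdx1-Cre driver and was made to express luciferase. Its cells had been injected into the tail of the pancreas of C57BL/6 mice (C57BL/6 J in the study's methods) at 10 weeks of age. The sample titles call the tumors PDX, whereas the source field gives the KPC K8484 cells. All mice were immunocompetent, and the host pancreas with its islets surrounded each graft. The study's methods give equal numbers of males and females for its orthotopic experiments, without the sex of the mouse behind each tumor. The 5 CTRL (normoglycemic) tumors came from mice on regular water, and the 5 D30 (hyperglycemic) tumors from mice given 30% dextrose to drink, for 14 days by the study's description, although when dextrose began relative to injection is not given alike throughout. Tumors are named by their table column, N for CTRL and T for D30, a letter that was assigned to D30 as the remaining group, and no column could be tied to a single labelled animal.

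Islets are small clusters of endocrine cells scattered through the exocrine pancreas. Beta cells secrete insulin together with islet amyloid polypeptide, alpha cells glucagon, delta cells somatostatin and gamma cells pancreatic polypeptide. Each hormone is made as a longer precursor that the convertases PC1/3 (Pcsk1) and PC2 (Pcsk2) cut inside dense-core granules, which also hold chromogranin A (Chga). PDX1 is needed for pancreas formation and later binds the insulin promoter in beta cells. In bulk tumor RNA, fewer cells of a type and less RNA per cell cannot be told apart.

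Depth was similar between groups, with 29192261 to 42122304 recovered reads per tumor, so that 1 read stood for 0.723 to 1.16 normalized counts. A D30 tumor, T4, stood apart as the only tumor with reads of Y-linked genes, 841 in all, and another, T5, had the fewest genes with a read, 20482. In every CTRL tumor and the remaining D30 tumors the Y-linked reads were 0, and which columns came from male mice is not known. Epithelial keratins were abundant in every tumor, Krt19 with 45447 to 114649 normalized counts. Values below are normalized counts, the reads of a gene divided by the size factor of the tumor. Intervals from reads cover counting error only.

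The 250 bases before the annotated start are printed for the hormone genes Ins1 (chr19:52264047-52264296, plus strand), Iapp (chr6:142298175-142298424, plus strand), Gcg (chr2:62483654-62483903, minus strand) and Ppy (chr11:102101320-102101569, minus strand), since these are the genes called between the groups. They are RefSeq sequences of GRCm38.p6, which held 9 of the 10 genes, written 5′ to 3′ on the strand of the gene, with each TAAT (or ATTA, its reverse complement) in capitals. TAAT is the core bound by homeodomain factors, the class to which PDX1 belongs.
Ins1: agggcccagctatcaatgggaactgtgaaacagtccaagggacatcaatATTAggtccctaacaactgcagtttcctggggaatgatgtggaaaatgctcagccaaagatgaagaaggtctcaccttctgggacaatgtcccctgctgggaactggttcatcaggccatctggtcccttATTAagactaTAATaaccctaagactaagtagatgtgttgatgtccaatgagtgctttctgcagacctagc
Iapp: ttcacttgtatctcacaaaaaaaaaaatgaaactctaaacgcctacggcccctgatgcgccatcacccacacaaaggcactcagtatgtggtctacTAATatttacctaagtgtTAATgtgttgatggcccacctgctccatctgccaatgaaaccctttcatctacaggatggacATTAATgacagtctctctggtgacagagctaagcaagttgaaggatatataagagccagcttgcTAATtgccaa
Gcg: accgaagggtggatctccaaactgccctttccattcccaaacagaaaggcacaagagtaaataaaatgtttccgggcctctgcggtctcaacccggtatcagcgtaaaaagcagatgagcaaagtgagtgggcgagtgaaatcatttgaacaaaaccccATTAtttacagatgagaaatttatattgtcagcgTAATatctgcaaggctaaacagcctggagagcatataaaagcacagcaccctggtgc
Ppy: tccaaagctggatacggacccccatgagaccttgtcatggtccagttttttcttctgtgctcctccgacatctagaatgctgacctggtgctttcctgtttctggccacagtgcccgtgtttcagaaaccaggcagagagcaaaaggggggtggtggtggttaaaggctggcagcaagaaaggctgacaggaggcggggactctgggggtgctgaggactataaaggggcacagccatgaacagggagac
TAAT occurred 3 times in the Ins1 window, 5 times for Iapp with overlapping matches counted, and 2 times for Gcg. The Ppy window held none. On either strand it was found in 54.9% of 32851 windows of this length, so that most windows hold it. The letters TATAAA or their reverse complement were found for Gcg and Ppy, against 12.4% of all windows. CANNTG, the E-box bound by basic helix-loop-helix factors, occurred 2 times for Ins1, 3 times for Iapp and 3 times for Gcg, and 66.2% of all windows held it.

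Hormone transcripts were read in every CTRL tumor and were nearly lacking from the D30 tumors. Ins1 (chromosome 19, 52264297 to 52265476, GRCm38), 1 of the pair of mouse insulin genes, had 41.0 normalized counts in N1, 410 in N2, 17.4 in N4, 0.885 in N5 and 542 in N6. It had 1.16 in T4, which is 1 read, and 0 in the other D30 tumors. N5 also had a single read, so that N5 and T4 overlapped for this gene. Fold changes here and below are D30 against CTRL on the scale of log2(normalized count + 1). For Ins1 limma gave -5.43, with a standard error of 1.25 and a Benjamini-Hochberg adjusted p of 0.0355. On this scale the change of genes with few reads is understated, and where a group is at 0 the value depends on the added 1 and is no bound. Ins2 (chromosome 7, 142678656 to 142743381), the other insulin gene, had 48.4 in N1, 504 in N2, 15.5 in N4, 2.66 in N5 and 549 in N6, against 11.6 in T4 and 0 in the other D30 tumors. T4 thus lay above N5 and below the other CTRL tumors. The log2 fold change of -5.20 (standard error 1.29) had an adjusted p of 0.0514 from limma, just outside the threshold. Without T4 the adjusted p of Ins2 was 0.0136 and that of Ins1 0.0239. Over all alternatives the adjusted p of Ins2 ran from 0.0136 to 0.147 and that of Ins1 from 2.22e-05 to 0.107. The transcripts of both genes are alike, and RSEM, which divides reads shared by similar transcripts, is named among the study's software without saying whether it made this table. How reads were split between Ins1 and Ins2 is therefore uncertain.

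Iapp (chromosome 6, 142298423 to 142303961), which encodes islet amyloid polypeptide, had 22.1 in N1, 72.3 in N2, 5.48 in N4, 1.77 in N5 and 130.1 in N6. It was at 0 in all 5 D30 tumors, and the groups did not overlap. With the D30 group set at a floor of 3 reads in all, Iapp was at least 74.0-fold lower in D30 tumors. Its fitted change was -4.39 on the log2 scale, with a standard error of 0.906 and an adjusted p of 0.0216 from limma. Its gene lies within the span of Slco1a5 without sharing an exon.

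Gcg (chromosome 2, 62474530 to 62483650) encodes proglucagon. It had 19.99 in N1, 76.6 in N2, 53.9 in N4, 1.77 in N5 and 181 in N6, against 2.31 in T4 and 0 in the other D30 tumors. N5 and T4 had 2 reads each, and these were the only tumors in which the groups met. The fit placed Gcg at -4.74 on the log2 scale, with a standard error of 0.936 and an adjusted p of 0.0170 from limma.
Ppy (chromosome 11, 102099930 to 102101319), the pancreatic polypeptide gene, was read at a low and even level in CTRL tumors. It had 13.7 in N1, 10.1 in N2, 4.57 in N4, 6.20 in N5 and 7.70 in N6, and 2.06 in T1 and 0 in the other D30 tumors. The groups did not overlap, although only 48 reads lay behind the CTRL values and 2 behind those of D30. For Ppy the fitted change was -2.84 on the log2 scale, with a standard error of 0.511 and an adjusted p of 0.0107 from limma.
Sst (chromosome 16, 23889573 to 23890958), which encodes somatostatin, had 3.16 in N1, 2.89 in N2, 5.13 in N6 and 0 in N4 and N5, 13 reads in all. It was at 0 in all D30 tumors, which at a floor of 3 reads over the group makes it at least 3.42-fold lower. The log2 fold change of -1.33 (standard error 0.597) did not pass the threshold (adjusted p = 0.275 from limma).

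**Figure D1:**
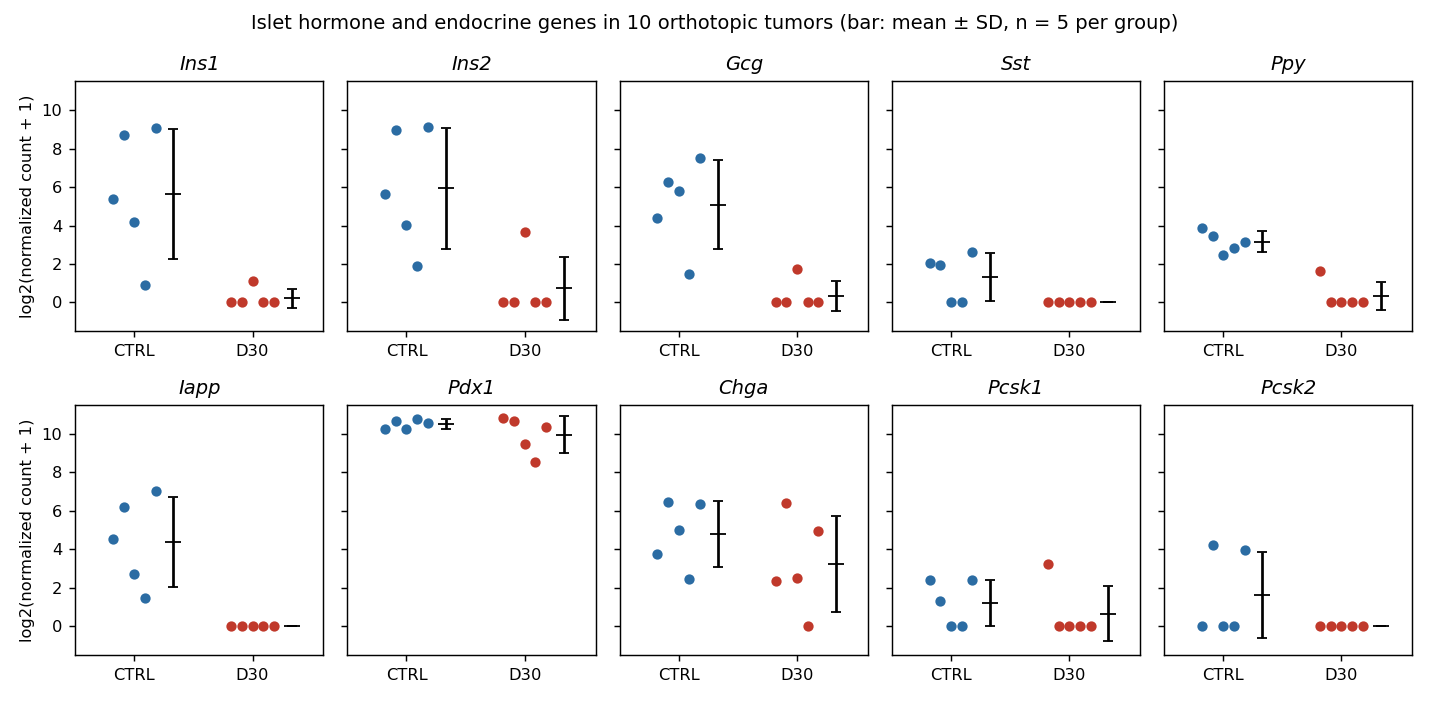
Each panel plots 1 gene as log2(normalized count + 1), with a point per tumor and the mean ± SD (n = 5) beside the points of each group. Ins1, Ins2, Gcg, Ppy and Iapp have points above 0 in all CTRL tumors and at 0 in at least 4 D30 tumors, whereas Pdx1 and Chga overlap widely.

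Summed over tumors, Ins1 had 1259 reads in CTRL and 1 in D30, Ins2 1405 and 10, Gcg 398 and 2, and Ppy 48 and 2. Scaled by the size factors, the CTRL level was 994 times that of D30 for Ins1 (95% counting interval 178 to 39302), 111 times for Ins2 (60.2 to 232), 157 times for Gcg (43.2 to 1302) and 19.0 times for Ppy (4.97 to 161). These ratios weigh tumors by their reads, and N2 and N6 held most of the reads of Ins1, Ins2, Gcg and Iapp.

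The same CTRL tumors were high for most hormones. N6 was the highest of the 5 for 5 of the 6 hormones, all but Ppy, for which N1 was highest, and N2 came second for 5 of them, all but Sst. N5 was lowest or at 0 for Ins1, Ins2, Gcg, Iapp and Sst. The order N6, N2, N1, N4, N5 was shared by Ins1, Ins2 and Iapp, which all are beta cell products, while Gcg was higher in N4 than in N1. The sum of the 6 hormones was 1415 normalized counts in N6, 1076 in N2, 148 in N1, 96.8 in N4 and 13.3 in N5. It was 15.0 in T4, 2.06 in T1 and 0 in T2, T5 and T7. T4 therefore lay slightly above N5 in this sum. Correlations between hormones over the tumors are not given, because 3 D30 tumors were at 0 throughout and the tumors fell apart by group, and 5 tumors within a group are too few.

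**Figure D2:**
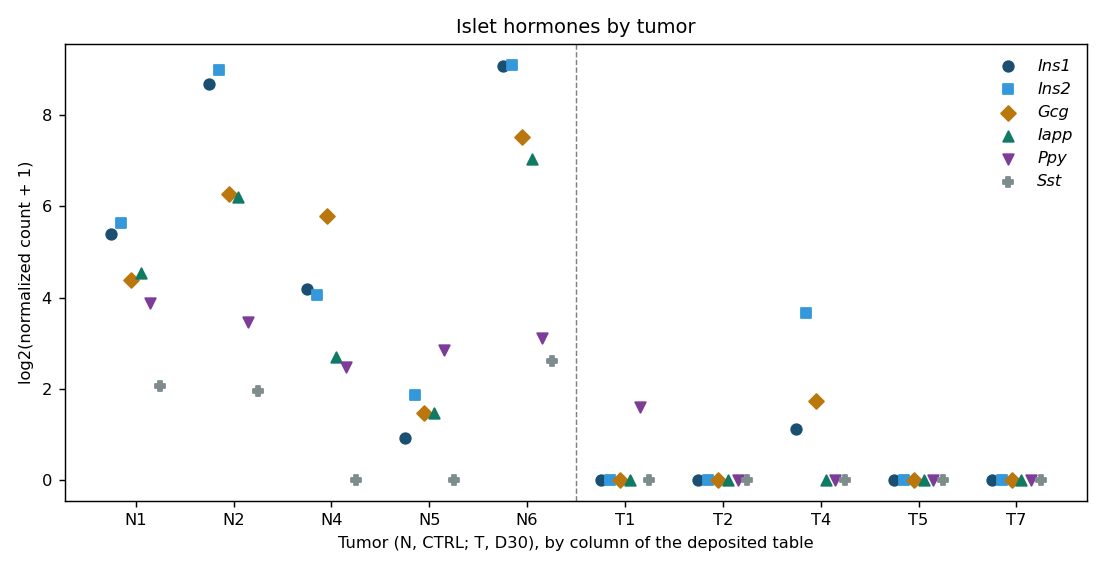
The vertical axis gives log2(normalized count + 1) of the 6 hormone genes in each of the 10 tumors, with CTRL tumors left and D30 tumors right of the dashed line. N2 and N6 are high for insulin, glucagon and amyloid polypeptide together, N5 is low for all but Ppy, and of the D30 tumors T4 alone has more than 1 hormone above 0.

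The mix of hormones differed between tumors. Insulin transcripts, Ins1 and Ins2 added, were 11.9 times those of Gcg in N2, 6.01 times in N6 and 4.47 times in N1. In N4 the ratio turned, at 0.610. Iapp stood at 0.247 of the insulin transcripts in N1, 0.167 in N4, 0.119 in N6 and 0.0791 in N2. Ins1 made up 44.9% of the insulin reads in N2 (95% exact binomial interval 42.1 to 47.6), 49.6% in N6 (46.9 to 52.4), 45.9% in N1 (35.02 to 57.0) and 52.8% in N4 (35.5 to 69.6). In T4 it was 1 of 11 insulin reads, or 9.09% (0.230 to 41.3). The intervals of N2 and N6 overlap narrowly. That of T4, from 11 reads, ends below both but overlaps those of N1 and N4, and the split of reads between Ins1 and Ins2 is uncertain.

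Acinar cells make the digestive enzymes and form most of the normal pancreas, and their 25 markers moved with the hormones in part. Their summed level was 658 to 99930 normalized counts in CTRL and 255 to 10263 in D30 tumors. It was highest in N6 (99930) and N2 (45905), the tumors with the most hormone reads, where all 25 markers were read. T4 followed with 10263, N4 had 5585, N5 2152, T7 1547, T1 899, T2 857, N1 658 and T5 255. N1 therefore had the second lowest acinar sum and the third highest hormone sum. Prss2, the trypsinogen gene, was also far lower in N1 (2.10 normalized counts) than in N6 (7426) and T4 (834). In T1 it was 1.03, and in T2, T5 and T7 it was 0, all below N1. Acinar transcripts per hormone transcript came to 4.43 in N1, 42.7 in N2, 57.7 in N4, 70.6 in N6, 162 in N5 and 683 in T4. In T1, T2, T5 and T7, 13 to 16 of the 25 acinar markers were at 0, against 7 in N1. By markers read, N1 therefore stood above these tumors, although its sum was below that of T1, T2 and T7. Single genes weigh on such low sums, as Cela1 alone had 125 to 705 normalized counts in D30 tumors. By the mean over all 10 tumors, the most abundant acinar transcripts were those of Ctrb1, a chymotrypsinogen gene (10478 ± 14425 in CTRL and 602 ± 1272 in D30, SD, n = 5 each), Prss2, and Reg1, which encodes a regenerating protein (2005 ± 1696 and 333 ± 325). In CTRL tumors alone Pnliprp1, a lipase-related gene, exceeded Reg1 with 2251 ± 3126. None of the 24 acinar genes tested passed the threshold over all genes in limma. Of these 24, 9 had an unadjusted limma p under 0.05, as had 4258 of all 24560 tested genes. The acinar list had a median log2 fold change of -3.98, and the whole tested table one of -0.06. The part of acinar tissue in the hormone differences was not tested.

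**Figure D3:**
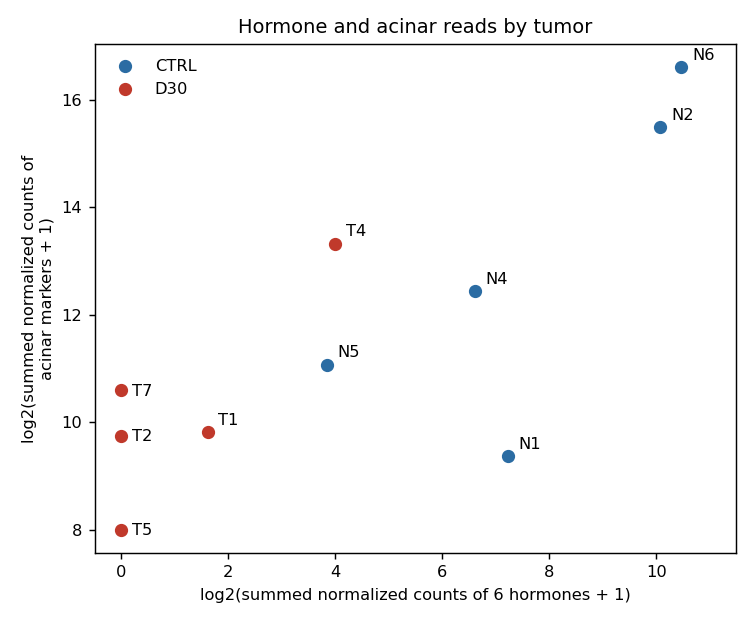
Each point is a tumor, placed by the summed normalized counts of the 6 hormones (horizontal) and of the acinar markers (vertical), both as log2 of the sum + 1. N2 and N6 are high on both axes, N1 has hormones with few acinar transcripts, and T4 has acinar transcripts with few hormones.

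None of the other 4 endocrine genes was called between the groups. Pdx1 (chromosome 5, 147269959 to 147275848) was read at a high level in all 10 tumors. It had 1200 in N1, 1615 in N2, 1225 in N4, 1755 in N5 and 1519 in N6, against 1794 in T1, 1612 in T2, 697 in T4, 370 in T5 and 1310 in T7. T4 and T5 lay below every CTRL tumor, while T1 exceeded all of them. By limma the change was -0.54 on the log2 scale (95% interval -1.35 to 0.27, adjusted p = 0.499 from limma), and without T5 it was -0.18. N5, nearly without hormone reads, had the highest Pdx1 value among the CTRL tumors. Pdx1 lies across the annotated gene Plut, and its exons overlap none of that gene.
Chga (chromosome 12, 102554969 to 102565028) had 12.6 in N1, 85.3 in N2, 31.1 in N4, 4.43 in N5 and 80.4 in N6, so that N2 and N6 were high and N5 low, as for insulin. In D30 tumors it had 4.11 in T1, 83.6 in T2, 4.63 in T4, 0 in T5 and 29.8 in T7. T2 and T7 thus carried Chga without any hormone read. The log2 fold change of -1.56 had a 95% interval of -3.96 to 0.84 (adjusted p = 0.510 from limma).
Pcsk2 (chromosome 2, 143546156 to 143816285), the PC2 gene, was read only in N2 (17.3) and N6 (14.5), the tumors with the most insulin and glucagon transcripts. At a floor of 3 reads over the D30 group it was at least 10.8-fold lower there. The fitted change of -1.63 on the log2 scale had a standard error of 0.884 and an adjusted p of 0.371 from limma. Its exons overlap those of the antisense genes Pcsk2os1 and Pcsk2os2, and since it is not given whether counting used strand, its reads are uncertain.
Pcsk1 (chromosome 13, 75089826 to 75134861), the PC1/3 gene, had 4.21 in N1, 1.45 in N2, 4.28 in N6 and 8.23 in T1, and 0 elsewhere. Its highest value was in a D30 tumor with no insulin or glucagon read. Its fitted change of -0.57 on the log2 scale had a standard error of 0.771 and an adjusted p of 0.753 from limma.

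Between the groups, 4 of the 10 genes were called lower in D30 tumors by limma at an adjusted p under 0.05, namely Ins1, Gcg, Ppy and Iapp, and none higher, where 1.36% of the 24560 tested genes were called lower and 2.76% in either direction. All 10 genes passed the filter of a mean of 1 normalized count. For 7 of them, all but Ins2, Pdx1 and Chga, the D30 values with CTRL counted as 0 would not have reached it, and these include all 4 called genes. Pcsk1 needed both groups, since its CTRL values with D30 counted as 0 fell short too (means 1.99 in CTRL and 1.65 in D30). Genes that pass through their CTRL level have to differ, so that these counts and the median are a description and nothing is read from their excess over the tested genes. Means were lower in D30 for all 10 genes, and the median log2 fold change was -2.23. Every CTRL tumor exceeded every D30 tumor for Ppy and Iapp, as it did for 3.32% of the tested genes. For 3 of the 10 genes no D30 tumor had a read, which held for 0.586% of the tested genes, and 8 of the 10 had no read in at least 4 D30 tumors, against 3.13%. Two-sided exact permutation tests of single genes gave p = 0.00794, the smallest that 5 tumors against 5 allow, for Ppy and Iapp, and p = 0.0159 for Ins1, Ins2 and Gcg. The exact permutation p was 0.167 for Sst, 0.341 for Pdx1, 0.270 for Chga, 0.524 for Pcsk1 and 0.444 for Pcsk2.
With each tumor left out in turn, Ppy kept its call in all 10 fits, with adjusted p values of 0.00935 to 0.0452 from limma. Without T4, the tumor that stood apart, the adjusted p was 0.00806 for Gcg and 0.0186 for Iapp. Gcg lost its call only without N2 (0.0623), and Iapp without N2 (0.0730), N6 (0.0530) or T7 (0.0521). Ins1 kept it only without N5 (0.00763) or T4, and its adjusted p rose to 0.107 without N2. The log2 fold changes of Ins1 over these fits ran from -6.62 to -4.58. On the recovered reads of the same 24560 genes, edgeR called Ins1, Ins2, Gcg, Ppy and Iapp lower, 5 of the 10, where it called 1.06% of all genes lower. With edgeR's own filter only Pdx1 and Chga were tested and 0 were called, where 1.46% of the genes were called lower. DESeq2 called the same 5 genes as edgeR did on the 24560, where 3.49% of the genes with an adjusted p were called lower.

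**Figure D4:**
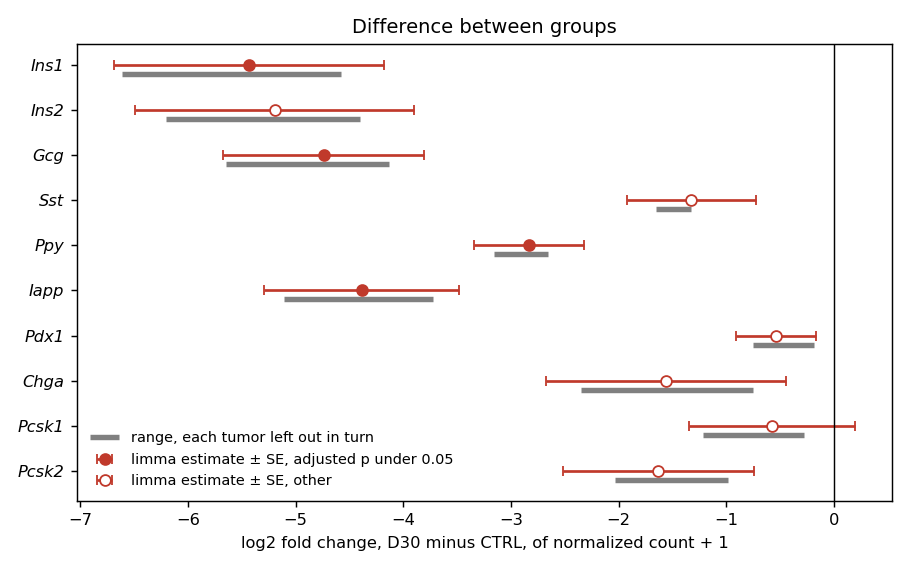
Points give the limma log2 fold change of D30 against CTRL with its standard error, filled where the adjusted p is under 0.05, and grey bars the range with each tumor left out in turn. Estimates and grey bars lie below 0 for all 10 genes, from -5.43 for Ins1 to -0.54 for Pdx1, and the bar of Sst covers 7 fits, since without N1, N2 or N6 it was too low to be tested.

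Other islet genes were taken from lists, of which no gene was called higher. Of all tested genes 1.36% were called lower. Rfx6 and Pyy reached the filter only with their CTRL values, so that counts of calls in these and the later lists are again a description. Among 12 tested beta cell genes, 1 was called lower, Slc2a2, which encodes the glucose transporter GLUT2. Its level was 26.7 ± 7.87 normalized counts in CTRL and 2.89 ± 3.06 in D30 tumors (SD, n = 5 each), without overlap. The change was -3.27 on the log2 scale, with an adjusted p of 0.0162 from limma. The median log2 fold change of the beta cell list was -0.20. Ero1lb, an oxidase gene of disulfide formation in beta cells, had 244 ± 52.5 in CTRL and 227 ± 33.7 in D30 (SD, n = 5 each). Gipr, the receptor of the incretin GIP, had 2714 normalized counts in T5 and at most 208 in any other tumor. Slc30a8, the zinc transporter of insulin granules, was read only in N2 and N6, at 2.89 and 2.57, and was too low to be tested.
Of 9 tested genes of alpha, delta, gamma and epsilon cells, 3 were called lower, with a median log2 fold change of -1.27. Pyy, the peptide YY gene, had 10.2 ± 2.55 in CTRL and 1.56 ± 1.52 in D30 tumors (SD, n = 5 each, adjusted p = 0.0359 from limma), and like Ppy it was read in every CTRL tumor at an even level. Ttr, the thyroxine carrier transthyretin, fell from 2235 ± 895 to 756 ± 272 (SD, n = 5 each, adjusted p = 0.0237 from limma), and Rbp4, the retinol carrier, from 13750 ± 698 to 7269 ± 2576 (SD, n = 5 each, adjusted p = 0.0455 from limma). N5, with few hormone reads, had 3474 normalized counts of Ttr, and N6, the tumor richest in hormones, had 2101. Hhex, a delta cell factor, had 1207 ± 129 in CTRL and 1170 ± 634 in D30 tumors (SD, n = 5 each).
Of 7 tested islet transcription factors, 1 was called lower, Rfx6, which endocrine progenitors need. It had 13.9 ± 9.44 in CTRL and 0.411 ± 0.920 in D30 tumors (SD, n = 5 each), with a log2 change of -3.37 and an adjusted p of 0.00660 from limma, and was highest in N5 (30.1), the CTRL tumor with the fewest hormone reads. Foxa2, a factor of gut endoderm, had 2808 ± 442 in CTRL and 2246 ± 429 in D30, Isl1 24.9 ± 10.7 and 15.99 ± 12.5, and Pax6 9.09 ± 3.44 and 5.79 ± 3.97 (SD, n = 5 each), none of them called. Neurod1 was read only in N2 and N6, at 0.723 and 2.57, whereas Nkx2-2 was read in N2 (2.89), N6 (0.856) and T4 (1.16). Other factors of this list went the other way. Neurog3 was read only in a single D30 tumor (16.0), and Myt1 had 1.01 ± 1.13 in CTRL and 4.66 ± 3.49 in D30 tumors (SD, n = 5 each).
None of 19 secretory granule and prohormone processing genes was called by limma. An unadjusted limma p under 0.05 was found for 4 of them, and for 4258 of the 24560 tested genes. Cpe, the carboxypeptidase that trims prohormones, was among the abundant transcripts of all tumors, with 43408 ± 3911 in CTRL and 43432 ± 19679 in D30 (SD, n = 5 each). Pam, which amidates peptide hormones, had 10947 ± 1068 and 12666 ± 2270, and the convertase gene Furin 10095 ± 2872 and 12154 ± 3956 (SD, n = 5 each). Scgn, secretagogin, was read only in N2 (4.34) and N6 (8.56), as was Pcsk2. Ptprn2 of the same list was read in N1 (3.16), N2 (5.06), N5 (2.66) and N6 (5.13) and in no D30 tumor. Pcsk1n, the inhibitor of PC1/3, was read in N2 (18.1), N4 (14.6), N6 (22.2) and T4 (1.16). By contrast, Snap25 of this list had 0.690 ± 1.12 in CTRL and 2.28 ± 3.34 in D30 tumors (SD, n = 5 each).

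Markers of other cell types were also read. Of 5 tested enteroendocrine genes 1 was called lower, Nts, the neurotensin gene, with 29.3 ± 15.3 in CTRL and 3.91 ± 3.15 in D30 tumors (SD, n = 5 each) and an adjusted p of 0.0249 from limma. Cck, the cholecystokinin gene, had 2.47 ± 3.81 in CTRL and 37.6 ± 66.3 in D30, and Tph1, of serotonin synthesis, 13.95 ± 6.84 and 25.5 ± 14.6 (SD, n = 5 each), neither called. Summed enteroendocrine markers ranged from 31.8 to 65.2 in CTRL and 29.8 to 204 in D30 tumors. Of 13 intestinal epithelium markers none was called, although Lgals4, Krt20 and Cdh17 had at least 11529 normalized counts in every tumor. The sum over that list was 63376 to 103782 in CTRL and 121450 to 283216 in D30, without overlap. Neither the 8 tested neuron and Schwann cell markers nor the 2 tested pituitary hormone genes held a call, with sums of 1073 to 1463 and 22.4 to 41.1 in CTRL against 575 to 1415 and 13.9 to 76.7 in D30. Among these were Tubb3 (945 ± 199 in CTRL and 676 ± 309 in D30), Uchl1 (44.8 ± 9.79 and 130.6 ± 77.5), Tshb (33.4 ± 7.90 and 42.2 ± 19.5) and Pomc (0.644 ± 0.966 and 4.46 ± 4.93, SD, n = 5 each). Of 9 ductal and tumor epithelium markers none was called, and their sum, made up mostly of Krt8, Krt18 and Krt19, was 212821 to 341921 in CTRL and 362191 to 482220 in D30 tumors, without overlap. The part of these cells in the hormone differences was not tested.

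**Figure D5:**
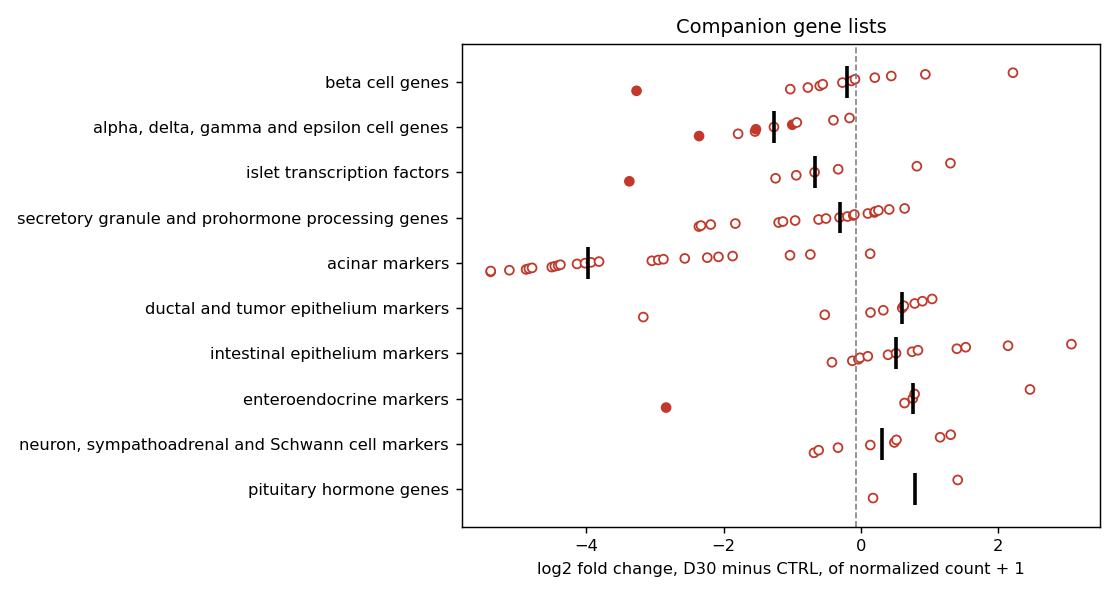
Each point is a tested gene, placed by its limma log2 fold change of D30 against CTRL and filled where the adjusted p is under 0.05, with the black bar at the median of its list and the dashed line at the median of all tested genes (-0.06). Filled points are Slc2a2, Pyy, Ttr, Rbp4, Rfx6 and Nts, all lower in D30, and the acinar list lies lowest with a median of -3.98.

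Per kilobase of exon in GENCODE M21, the mean level in CTRL tumors was highest for Pdx1 (678 ± 113 normalized counts per kilobase, SD, n = 5), followed by Ins1 (190 ± 240), Ins2 (171 ± 211), Iapp (47.6 ± 56.1), Gcg (44.7 ± 47.1), Ppy (16.9 ± 7.13), Chga (15.5 ± 13.7), Sst (3.10 ± 3.08), Pcsk2 (0.806 ± 1.11) and Pcsk1 (0.354 ± 0.382). Pdx1 exceeded Ins1 by more than either SD, and every later pair of neighbours differed by less than the larger of their SDs. In D30 tumors Pdx1 had 536 ± 281 (SD, n = 5) and Chga 8.87 ± 12.7 (SD, n = 5) per kilobase, and every other gene of the 10 was below 2.
The genes most like the hormones over the 10 tumors were sought among 17295 genes with a mean of at least 10, by Pearson r with the mean of the standardized log2 values of the 6 hormones. They were A230050P20Rik (r = 0.968), Dclk2 (0.950), Ppm1h (0.932), Reps2 (0.921), Cmtm8 (0.917), Lhx6 (0.912), Gm45714 (0.910), Cmtm3 (0.906), Prss35 (0.895) and Cacng7 (0.893). For 9 of these genes all CTRL tumors exceeded all D30 tumors, so that the group difference is part of each r. Lhx6 and Cmtm3 were also called lower in D30, with log2 fold changes of -1.57 and -1.13. Acinar markers came after them, with r from 0.274 for Bhlha15 to 0.834 for Ctrl, the chymotrypsin-like protease gene.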

How the data were processed

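Strand-specific libraries from the RNA of 10 tumors were sequenced, and the authors ran Trim Galore and then STAR 2.7.0e. The methods name hg38, the submitters' processing notes GRCm39, and the table lists mouse Ensembl identifiers. RSEM is listed among the study's software, but not that it made this table. The annotation release and counting settings are not given in the sources used here. The deposited signal per gene and tumor is the form of DESeq2's normalized counts, reads divided by a size factor set by the authors. All columns were whole multiples of 1 step (100.0% of values within 0.02 of a whole read), which gave the recovered reads. If RSEM made the table, these are expected counts rounded to whole numbers. Identifiers were matched without version to GENCODE M21 (GRCm38), 94.1% of them, and Ero1b through its older RefSeq symbol Ero1lb.

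Testing was limited to genes whose mean reached 1 normalized count, on log2(normalized count + 1) with limma 3.58.1 (R 4.3.3, mean-variance trend, all tumors, no covariate), as 1 fit over the table with Benjamini-Hochberg adjustment over all tested genes. The recovered reads were tested with edgeR 4.0.16 (quasi-likelihood) and DESeq2 1.42.0 as alternatives. Other scalings, another pseudocount, other filters and leaving out each tumor were further alternatives. The fits were also run on simulated counts, with changes placed only in genes of higher mean. That run does not cover genes with few reads, such as Sst, Ppy, Pcsk1 and Pcsk2. Single genes had exact permutation tests.

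The members and lists were chosen with earlier results of these data known. Named are the 10 members, in each list the called genes and the 3 with the highest mean, and the 10 genes most like the hormones. Other genes (Slc30a8, Neurod1, Scgn, Pcsk1n, Bhlha15, Ctrl, Pnliprp1 and Kcnj11) were named after their values were seen. The design text calls the tumors independent biological replicates. Motilin was matched to no gene of the table. A few genes that this rule or the lists name are not reported here.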

Additional observations from a re-analysis of the deposited data

Results flagged for a closer look

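In 5 of 17 sets of 5 tumors with any spread, the highest tumor stood far from the others by Dixon's criterion, which chance passes in about 1 of 20 sets, although sets in which 4 tumors are at 0 pass it with any read. T4 was the highest D30 tumor for Ins1 (1.16 normalized counts, 1 read), Ins2 (11.6, 10 reads) and Gcg (2.31, 2 reads), where the other D30 tumors were at 0. T1 was the highest for Ppy (2.06, 2 reads) and Pcsk1 (8.23, 8 reads), again with the others at 0.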

How the results depend on the processing

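Over 163 values of single members under the alternatives, 0 changed direction. For Iapp, Sst and Pcsk2, at 0 in every D30 tumor, no alternative could reverse it. Ins1, Ins2, Gcg and Ppy, read in a single D30 tumor, could hardly reverse either, so that this count says little about them. The number of members called was 4 and became 3 to 5 under every other scaling, pseudocount and filter, under DESeq2 (5) and under edgeR on genes with a mean of at least 1 (5), the last chosen after seeing the data. With edgeR's own filter it was 0, because only Pdx1 and Chga of the 10 passed that filter, with 0 at an unadjusted p under 0.05. With each tumor left out it ranged from 1 (without N2) to 5, and was 2 without N6 or without T7. The number of genes called over the table was 678, and became 1858 with DESeq2 and 279 (without N2) to 1573 (without T4) with a tumor left out, with 340 without N5, 332 without N6 and 433 without T7. Scaling by library size moved the median of all genes from -0.06 to -0.27 on the log2 scale and the share of calls that were lower from 49.3% to 72.2%, while edgeR gave 35.4%. The direction of the 10 genes was lower under each scaling, which for the genes at 0 in every D30 tumor was fixed in advance. No paired analysis was possible because the numbers in the column names are not those given to the replicates in the labels. The planned correlations between hormones were not run, since the tumors fell apart by group. The few reads of Sst, Ppy, Pcsk1 and Pcsk2 limit what can be said of them.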

Other observations

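Among beta cell genes, Kcnj11, which encodes the pore of the ATP-sensitive potassium channel, had 174 normalized counts in T2 and 63.9 in T7, the D30 tumors with Chga but no hormone read, and at most 14.5 in any other tumor. It was picked after its values were seen. Abcc8, the regulatory subunit of the same channel, was also highest in T2 (213) and T7 (164), and was read in every tumor, with at least 50.9.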
